A study of Mus musculus with 6 samples.

Results

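Mammary glands of mice homozygous for the Brca1 D11 allele were compared with glands of Brca1 wild-type mice, all of them heterozygous for p53. The comparison takes 4 of the 6 arrays of the series, chosen by genotype: the 2 arrays labelled Brca1 D11/D11;p53+/- and the 2 labelled Brca1 D+/+;p53+/-, which were read here as the wild-type controls. Each genotype was sampled once as a 6-month-old virgin and once as a 2-month-old mouse on day 1 of lactation, so that each stage gives 1 pair of a mutant and a control. The other 2 arrays, Brca1 co/co/MMTV-Cre against Brca1 +/co/MMTV-Cre at pregnancy day 16.5 and 5 months of age, carry a conditional allele that is deleted by Cre under a mouse mammary tumour virus promoter. That pair is only set beside the results. The series' design text describes all the pairs by the germline genotype, which differs from the sample labels of the pregnant pair, and the labels were followed.

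All the mice were females of a mixed 129/FVB/Black Swiss background. Each array holds total RNA of the mammary glands of 1 mouse, so the glands' epithelium, fat, stroma, vessels, blood cells and any adjoining muscle were measured together. In such bulk tissue, fewer cells of a type and less RNA per cell cannot be told apart. The virgin and the lactating pair differ in stage, in age and in the array date that their titles bear, and these cannot be told apart. Within each date 1 mutant and 1 control were measured, so every ratio below was taken within a date. Littermate status was not known here, and a mixed background lets mice of 1 genotype differ at many loci.

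Brca1 encodes a tumour suppressor that works with Bard1, Palb2 and Brca2 in the repair of broken DNA by homologous recombination, and that also acts in cell cycle checkpoints. The D11 allele lacks the large central exon and still gives rise to a shorter protein. Mice with only that form die before birth unless p53 function is reduced, which is why D11/D11 females are studied on a p53-mutant background. In the mammary gland Brca1 is known for its part in the growth and differentiation of the luminal epithelium during pregnancy, and its loss leads to tumours after a long delay.

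The values were MAS5 signals, a linear measure of the brightness of a probe set, which is the group of probes that reads a transcript. They were used as log2(signal + 52.1), and a ratio below always means mutant over control of 1 stage on that scale. It understates the change of dim genes. Over the 11495 genes tested, the median log2 ratio was 0.02 in the virgin and 0.04 in the lactating pair, so a ratio near 0 stands close to the typical gene. When every array was instead centred on its own median signal, these medians became -0.13 and 0.15. The ratios of signals from the 3' to the 5' end of the Actb control transcript, which rise as RNA degrades, were 2.74 and 2.04 in virgin glands, control first, against 1.91 and 1.58 in lactating glands. For Gapdh they were 3.50, 1.52, 1.09 and 1.20 in the same order. RNA quality thus differed most within the virgin pair, and its part in the results was not tested. The milk genes followed the labelled stages: Wap, which encodes whey acidic protein, had signals of 381.9 and 885.3 in virgin glands, control first, and of 44759.9 and 47507.3 in lactating glands.

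The allele itself could not be checked, because no source used here places the Brca1 probe sets relative to the deleted part. The probe set with the highest mean gave signals of 137.0 and 486.5 in virgin glands, control first, a log2 ratio of 1.51. In the lactating pair it gave 237.6 in the control and 156.7 in the mutant, a log2 ratio of -0.47. Brca1 thus stood higher in the mutant of one pair and lower in that of the other, and across its 4 probe sets the lactating ratios ran both ways. Xist, whose RNA covers the silenced X chromosome, is a gene that the series' title bears on. Its signals were 11638.9 and 13887.4 in virgin glands, control first, and 11446.9 and 9393.1 in lactating glands. Its log2 ratios of 0.25 and -0.28 differed in sign between the pairs.

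No gene passed the test across both pairs. With stage as a block, limma called 0 of 11495 genes (0.0%) at an adjusted p under 0.05. The lowest adjusted p of limma was 0.674, and 631 genes had an unadjusted p under 0.05, of which 350 were higher and 281 lower in the mutants. The design leaves 1 residual degree of freedom. With each array centred on its median, limma called 11 genes, all higher in the mutants, 8 of which are among the 2-fold genes described next. That fit gave more weight to the spread shared across genes, with 37.1 prior degrees of freedom against 7.8 in the main fit. A gene's own disagreement between the pairs thus counted for less there. In both pairs 3332 genes (29.0%) were higher in the mutant and 2566 (22.3%) were lower. The pairs thus shared the sign of the ratio in 5898 genes, or 51.3%. At least 2-fold higher in both pairs were 15 genes (0.13%), and at least 2-fold lower in both were 4 (0.0348%). Other scalings, pseudocounts, filters and probe set rules gave 3 to 42 higher and 1 to 15 lower genes. A further 25 genes were at least 2-fold apart in opposite directions, 20 of them higher in the virgin and lower in the lactating mutant. The lactating pair had more genes at least 2-fold apart than the virgin pair, 721 against 301. Across genes, which are not independent replicates, the ratios of the 2 pairs had a Pearson correlation of 0.032.

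**Figure D1:**
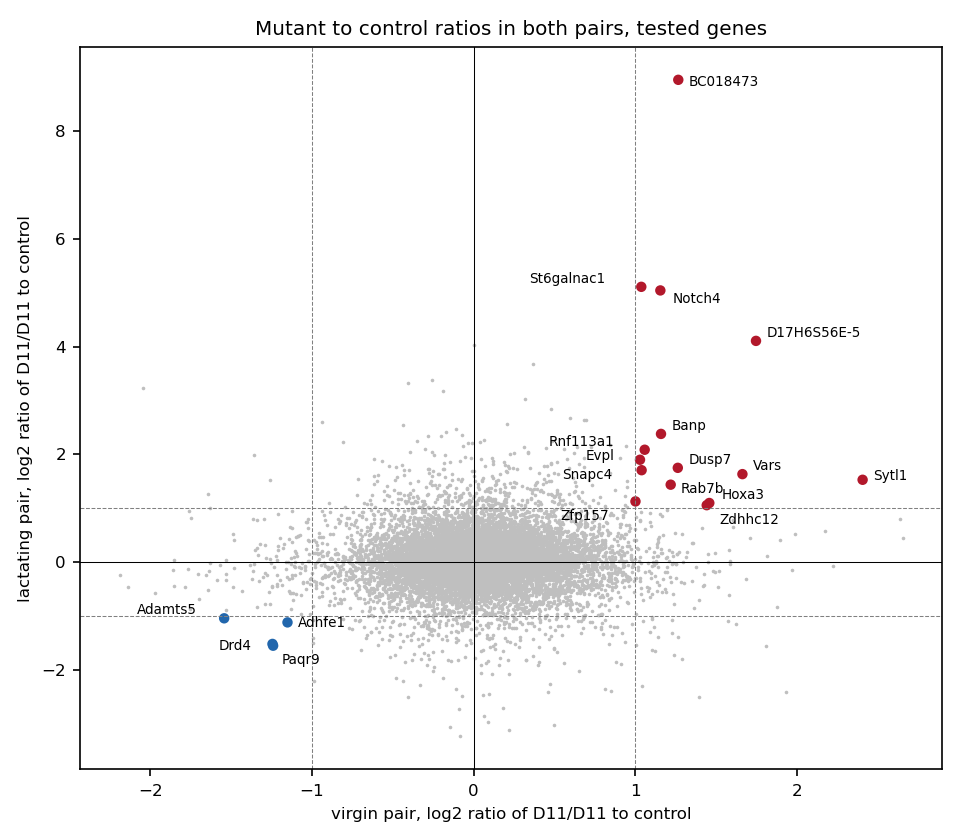
Log2 ratio of the D11/D11 mutant to its control in the virgin pair (x axis) and in the lactating pair (y axis), 1 point for each of the 11495 tested genes. Red points mark the 15 genes at least 2-fold higher and blue points the 4 genes at least 2-fold lower in both pairs, dashed lines mark 2-fold, and the cloud of grey points shows no slope.

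Among the 15 genes that were higher by at least 2-fold in both pairs, 3 lie on chromosome 17, within or beside the major histocompatibility complex. Chromosome 17 holds 543 of the 11495 tested genes. D17H6S56E-5 had signals of 5065.4 and 17134.4 in virgin glands, control first, and of 564.5 and 10564.1 in lactating glands. Both mutants lay above both controls. The log2 ratios were 1.75 and 4.11, and the other probe set of the gene gave 2.37 and 5.34. In the conditional pair the signals were 23273.5 and 21458.5, so that its control too lay above both D11 mutants. Next to D17H6S56E-5 in the order of tested genes lies Vars, which encodes the valyl-tRNA synthetase that charges tRNA with valine. Vars signals were 274.3 and 981.9 in virgin glands, control first, and 522.6 and 1728.4 in lactating glands. Its ratios of 1.66 and 1.63 were nearly equal in the pairs, and both mutants lay above both controls. It had the limma fit's joint lowest adjusted p of 0.674, which is past no threshold. How many of all tested genes kept both mutants apart from both controls is not given here, so such separation only describes single genes.

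Notch4, the chromosome 17 gene for a Notch receptor found mainly on endothelial cells, had signals of 128.1 and 349.5 in virgin glands, control first, and of 82.8 and 4396.4 in lactating glands. The mutants lay above the controls, with ratios of 1.16 and 5.04. This rests on 1 probe set: the other 2 had virgin ratios of -0.43 and 0.32 and lactating ratios of -0.05 and -0.17. Between D17H6S56E-5 and Notch4 lie 21 tested genes. Just beyond Notch4 lie class II genes of the complex, which encode the chains that present peptides to T cells. H2-Eb1 was higher in both mutants, with signals of 5985.0 and 11406.6 in virgin and 645.2 and 1229.7 in lactating glands, control first. H2-Aa, its near neighbour, had 14456.0 and 8471.3 in virgin and 2184.3 and 1180.1 in lactating glands, so it was lower in both mutants on that probe set. Another of its probe sets had ratios of 0.54 and 0.53, the opposite direction. H2-Ab1 had ratios of -0.40 and -0.32.

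Another 3 of the 15 genes lie on chromosome 11, which also holds Brca1. With 988 of the 11495 tested genes, it holds more of them than any other chromosome. BC018473, known by a cDNA clone name, had signals of 4993.7 and 12091.6 in virgin glands, control first, and of 30.6 and 40977.8 in lactating glands. The lactating control stood at the level of Y-linked probe sets, whose median signal in these females was 33.6, so the lactating ratio of 8.95 depends on the pseudocount. The other probe set gave ratios of 1.10 and 4.05. St6galnac1 lies next to it and encodes a sialyltransferase that caps O-linked sugars on mucins. Its signals were 582.7 and 1251.2 in virgin and 526.0 and 19910.4 in lactating glands, control first. Both mutants lay above both controls, and the log2 ratios were 1.04 and 5.11.

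On the other side of BC018473 lies St6galnac2, a related sialyltransferase. It had signals of 1379.1 and 2696.7 in virgin and 1976.7 and 8918.1 in lactating glands, control first, with ratios of 0.94 and 2.14. The mutants again lay above the controls, although the gene's dimmer probe set had a lactating ratio of -2.03. Evpl encodes envoplakin, a plakin of desmosomes and of the cornified envelope, and 10 tested genes lie between it and BC018473. Evpl signals were 84.5 and 226.8 in virgin and 79.5 and 438.4 in lactating glands, control first. Between BC018473 and Brca1 lie 154 tested genes. In the conditional pair St6galnac1 stood lower in the mutant, at 2310.4 against 5141.7, and BC018473 at 17236.6 against 20948.7.

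**Figure D2:**
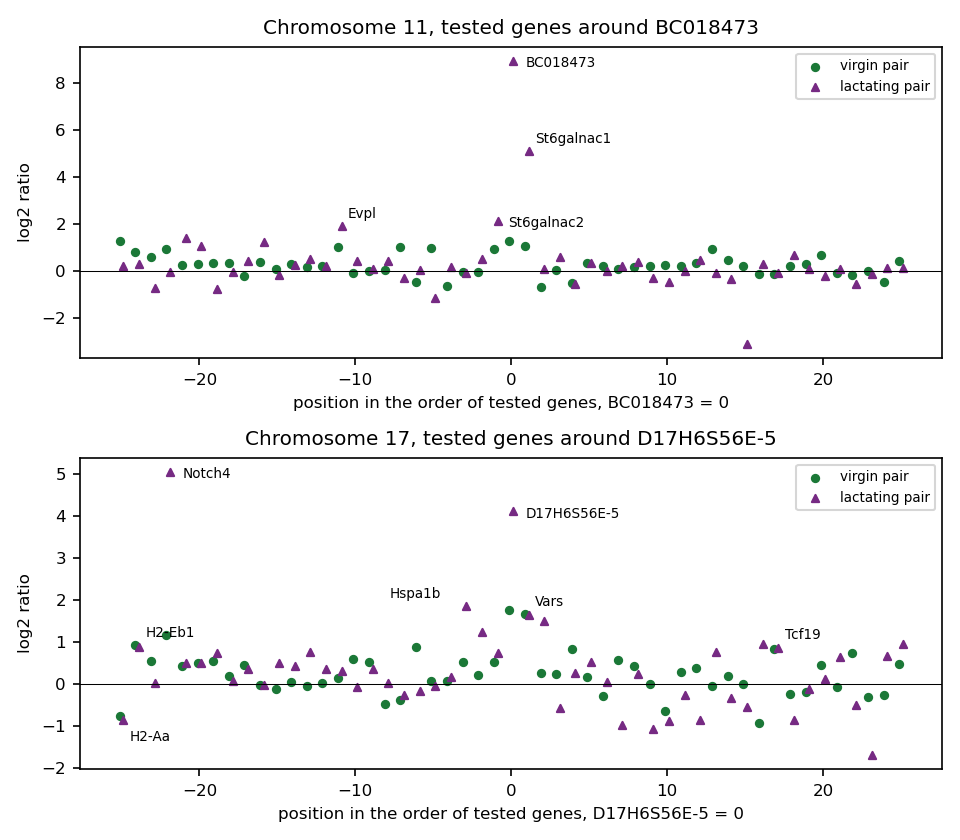
Log2 ratio of mutant to control for each tested gene by its place in the gene order, 25 genes on each side of BC018473 on chromosome 11 (top) and of D17H6S56E-5 on chromosome 17 (bottom), with circles for the virgin and triangles for the lactating pair. St6galnac2, BC018473 and St6galnac1 stand side by side above 0 in both pairs, as do D17H6S56E-5 and Vars, while H2-Aa lies below 0.

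Around these genes more neighbours were higher than lower in both pairs. Over all tested genes 29.0% were higher and 22.3% lower in both. Of the 50 tested genes nearest to D17H6S56E-5, 24 (48%) were higher and 9 (18%) lower in both pairs, with a median fitted log2 ratio of 0.23. Of the 50 nearest to BC018473, 21 (42%) were higher and 5 (10%) lower in both pairs, with a median of 0.15. Both windows were chosen after their values were seen. Each also counts 2 of the genes at least 2-fold higher in both pairs that led to its choice. Of the 100 tested genes nearest to Brca1, 39 were higher and 19 lower in both pairs, with a median of 0.08. Over whole chromosomes, chromosome 17 had the highest median of 20, at 0.10, with 200 of its 543 tested genes higher in both pairs. Over all tested genes the fitted median was 0.04. Chromosome X, on which the series' title turns, stood at a median of 0.01: in both pairs 77 of its 342 tested genes were higher and 95 were lower.

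The remaining genes that were at least 2-fold higher in both pairs act in signalling, membrane traffic, transcription and RNA processing. Dusp7, a phosphatase that switches off the mitogen-activated kinase Erk, had signals of 95.5 and 302.4 in virgin glands, control first, and of 875.4 and 3062.6 in lactating glands. Its log2 ratios were 1.26 and 1.75, and stage moved it further than genotype did, since the lactating control lay above the virgin mutant. Rab7b, a small GTPase of endosomal traffic, had 119.4 and 347.4 in virgin and 403.0 and 1178.0 in lactating glands, control first. Here too the lactating control lay above the virgin mutant. Sytl1, a synaptotagmin-like protein that links secretory vesicles to Rab27, had 9.0 and 272.2 in virgin and 136.3 and 490.6 in lactating glands. Its virgin control lay under the Y-linked median.

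Zdhhc12, an enzyme that attaches palmitate to proteins, had 119.4 and 414.2 in virgin and 696.2 and 1501.8 in lactating glands, control first. Of the 15 genes, all except D17H6S56E-5, Vars and St6galnac1 had at least 1 array under 260.4, the 95th percentile of the Y-linked probe sets. Banp, which encodes a DNA-binding nuclear protein, had 144.2 and 386.4 in virgin and 70.6 and 585.8 in lactating glands. Rnf113a1, a ring-finger protein tied to splicing, had 134.4 and 336.5 in virgin and 69.0 and 461.5 in lactating glands. In both, each mutant lay above each control.

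Snapc4, a subunit of the complex that starts small nuclear RNA transcription, had 119.7 and 301.2 in virgin and 53.1 and 290.6 in lactating glands. The homeobox gene Hoxa3 had 53.2 and 237.3 in virgin and 160.6 and 402.2 in lactating glands. Both again showed each mutant above each control, which the choice of genes 2-fold higher in both pairs favours. Zfp157, a zinc finger gene, had 181.3 and 415.3 in virgin and 94.0 and 266.4 in lactating glands, control first. Its other probe set had a lactating ratio of -0.27, and 1 of the 2 other probe sets of Dusp7 had a virgin ratio of -0.33. Over all 19 genes past 2-fold, 11 of 21 other probe sets shared the sign in both pairs. The smaller ratio of Zfp157, 1.00, lay just inside the 2-fold limit, and those of Crabp2, Angptl7 and Tmem171, at 0.98, 0.97 and 0.95, lay just outside it.

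**Figure D3:**
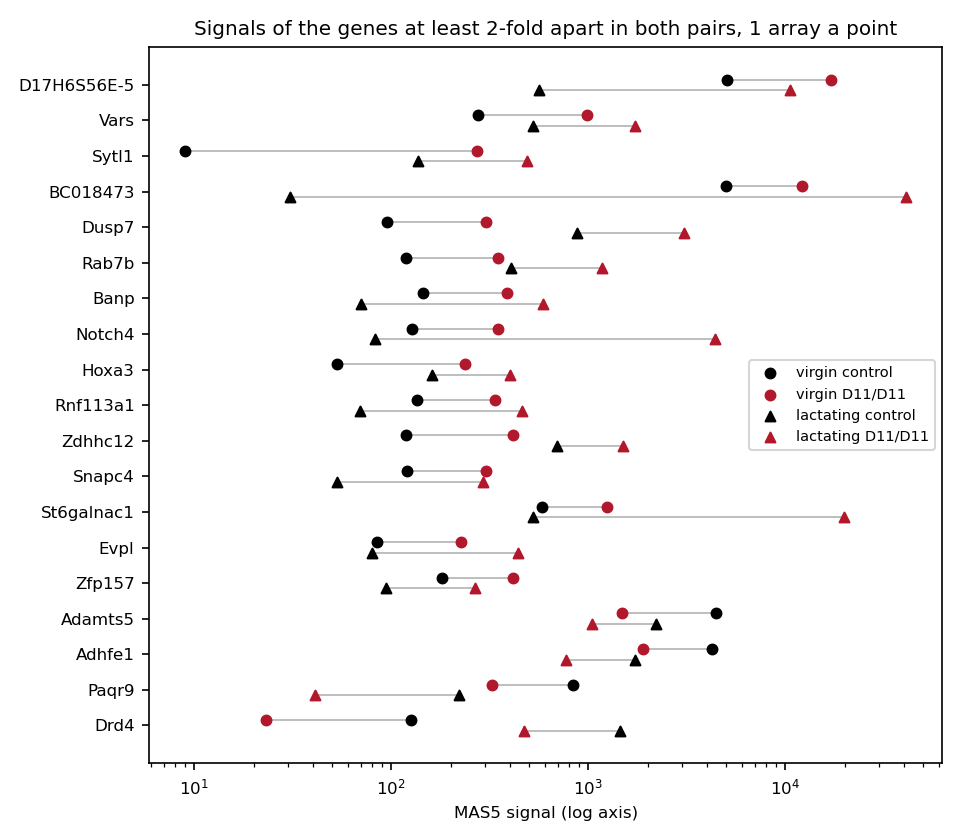
MAS5 signals on a log axis in each of the 4 arrays, 1 point an array, for the 19 genes at least 2-fold apart in the same direction in both pairs; circles are the virgin and triangles the lactating pair, black the controls and red the D11/D11 mutants. Most of the genes are dim, and only 5 of the 19 had a signal of at least 260.4 in all 4 arrays.

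The 4 genes that were at least 2-fold lower in both pairs include a pair of well-expressed ones. Adamts5, a protease that cuts the proteoglycans aggrecan and versican, had signals of 4431.7 and 1485.7 in virgin glands, control first, and of 2218.8 and 1047.0 in lactating glands. Both mutants lay below both controls, with log2 ratios of -1.54 and -1.05, and 2 of its 3 other probe sets were lower in both pairs too. Adhfe1, a mitochondrial dehydrogenase of hydroxybutyrate metabolism, had 4259.0 and 1887.6 in virgin and 1735.0 and 768.5 in lactating glands. The groups overlapped, since the virgin mutant lay above the lactating control, and the ratios of -1.15 and -1.12 were alike. Paqr9, a membrane receptor of the progestin and adiponectin receptor family, had 840.5 and 325.6 in virgin and 221.7 and 41.0 in lactating glands. Drd4, a dopamine receptor, had 126.1 and 23.1 in virgin and 1450.8 and 471.0 in lactating glands. The virgin mutant of Drd4 lay under the Y-linked median, and its other probe set, with both virgin arrays under that median, had a lactating ratio of -4.13. Paqr9's other probe set had ratios of -0.54 and 0.25. As both genes were picked as lower in both pairs, the control of each stage was the higher array. With the mean of all probe sets of a gene, none of the 4 stayed past 2-fold in both pairs.

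Just outside the 2-fold limit came Tcap, the titin cap of the muscle Z-disc, at -0.995 and -1.41, and Gys2, a glycogen synthase, at -0.99 and -1.09. The cell adhesion gene Iglon5 had ratios of -0.99 and -1.51. Gsta3, a glutathione transferase of detoxification, had signals of 640.6 and 297.9 in virgin and 312.1 and 26.8 in lactating glands, the last under the Y-linked median. Trdn, the triadin of the muscle calcium release site, had ratios of -1.07 and -0.96, and Mylk4, a myosin light chain kinase, had -1.53 and -0.89. Gem, a small GTPase, had -1.01 and -0.96, and Atp4b, a proton pump subunit, had -0.92 and -1.06 with a virgin mutant under the Y-linked median. Mccc1, a subunit of the mitochondrial carboxylase of leucine breakdown, had -0.77 and -1.22 and was among the 8 lowest moderated statistics. The muscle genes among these are Tcap, Trdn and Mylk4, and the share of muscle genes among all tested genes is not given here. Of the 5 other Trdn probe sets 4 were lower in both pairs, while another had 0.76 and 0.15.

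**Figure D4:**
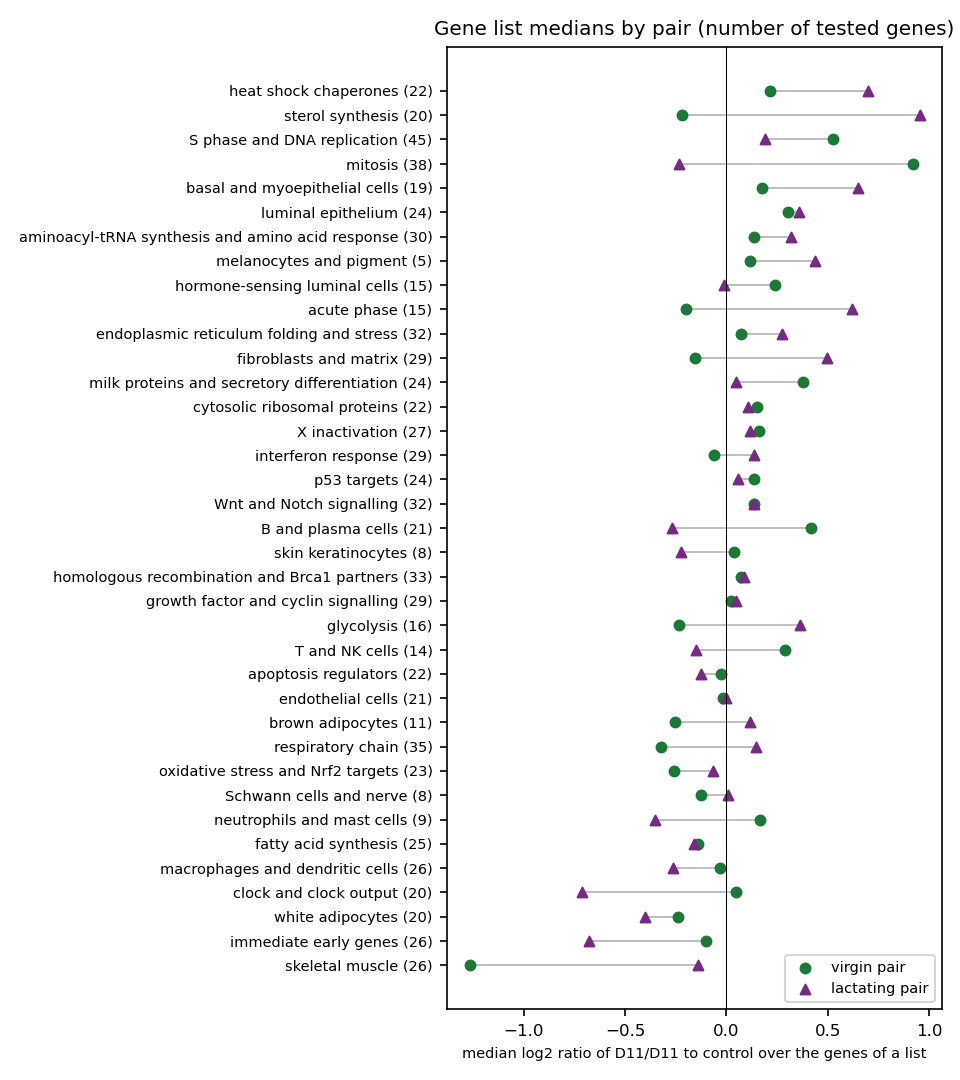
Median log2 ratio of mutant to control over the tested genes of each of 37 gene lists, with the number of tested genes in brackets, circles for the virgin and triangles for the lactating pair. The heat shock list stands at the top and skeletal muscle at the bottom by the median of the fitted ratio, and mitosis and sterol synthesis have medians of opposite sign in the pairs.

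Gene lists for cell types and pathways were described by how many members shared a sign in both pairs. No member of any list passed limma's threshold, and the shares over all tested genes were the 29.0% higher and 22.3% lower given above. Within a single pair, 52.8% of all tested genes were higher in the virgin, 53.9% in the lactating and 52.3% in the conditional mutant. Lower in the same order were 5424, 5304 and 5476 of the 11495 genes. Skeletal muscle, which can be taken along with some mammary glands, had the lowest median fitted ratio, -0.76. Of 26 tested muscle genes 16 were lower and 1 higher in both pairs, with median log2 ratios of -1.27 in the virgin and -0.14 in the lactating pair, the latter becoming -0.04 under median centring. Their summed signal was 73185.0 and 26289.6 in virgin glands, control first, and 140846.0 and 129860.6 in lactating glands. Neb, the giant nebulin of the thin filament, had 1112.3 and 320.6 in virgin and 2037.3 and 1399.0 in lactating glands. Ttn, which encodes titin, had ratios of -1.15 and -0.54, and Mb, the oxygen carrier myoglobin, had -0.82 and -0.70. These 3 were named from the members with the same sign in both pairs, and the virgin pair had the larger gap in each. The part that muscle content plays in the low ratios of Tcap, Trdn and Mylk4 was not tested.

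White adipocyte genes also stood lower, with 10 of 20 lower and 1 higher in both pairs and medians of -0.24 and -0.40. Pparg, the master regulator of fat cell differentiation, had signals of 5495.8 and 2331.5 in virgin and 206.2 and 143.1 in lactating glands, control first. Retn, the adipocyte hormone resistin, had 17865.3 and 13653.6 in virgin and 3972.0 and 1510.2 in lactating glands. The lipid droplet protein gene Plin4 had ratios of -0.56 and -0.48, and Slc2a4, the insulin-responsive glucose carrier, had -0.52 and -0.40. The other Slc2a4 probe set, which was dimmer, had 0.88 and 0.08, the opposite direction. These 4 genes were named from the members with the same sign in both pairs, so their shared direction was set by that choice. On the probe set with the highest mean, both virgin arrays lay above both lactating arrays in all 4. The summed adipocyte signal was 245076.0 and 237308.7 in virgin glands, control first, and 169164.1 and 142387.2 in lactating glands. Of 25 fatty acid synthesis genes 8 were lower and 6 higher in both pairs, among them Acaca, the first committed enzyme, at -0.41 and -0.75, and Me1, malic enzyme, at -0.79 and -0.40. Fads2, a desaturase of the same list, stood at 0.90 and 0.70.

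Epithelial genes leaned the other way. Of 24 luminal epithelium genes 13 were higher and 1 lower in both pairs, with medians of 0.31 in the virgin and 0.36 in the lactating pair. Krt19, a luminal keratin, had signals of 3564.4 and 6441.7 in virgin glands, control first, and of 3842.7 and 12235.5 in lactating glands, so that both mutants lay above both controls. Spint1, an inhibitor of epithelial serine proteases, had ratios of 0.85 and 0.90. The tight junction claudins Cldn3 and Cldn7 had virgin ratios of 0.74 and 0.54 and lactating ratios of 1.15 and 1.05. The summed luminal signal was 62905.9 and 74028.3 in virgin glands, control first, and 100662.7 and 142910.9 in lactating glands. Luminal genes thus stood higher in the mutant of each pair in number and in sum.

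Of 19 basal and myoepithelial genes 9 were higher and 1 lower in both pairs, with medians of 0.18 and 0.65, of which the virgin one became 0.02 under median centring and 0.08 under quantile normalization. The basal keratin gene Krt5 had signals of 826.5 and 1103.9 in virgin and 1205.8 and 2691.3 in lactating glands, control first. Igfbp2, which binds insulin-like growth factors, had ratios of 0.64 and 2.13, and Actg2, a smooth muscle actin, had 0.53 and 0.78. The summed basal signal did not follow the count in the virgin pair, at 82009.3 in the control and 81286.6 in the mutant. The luminal and basal lists had medians above 0 and the white adipocyte and muscle lists medians below 0 in both pairs, and their part in the other results was not tested. Hormone-sensing luminal genes, with medians of 0.24 and -0.01, and brown adipocyte genes, with medians of -0.25 and 0.12, did not keep 1 sign. Fibroblast and matrix genes had medians of opposite sign, -0.15 in the virgin and 0.50 in the lactating pair.

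Milk and secretory genes were higher in both pairs in 12 of 24 and lower in 3, with medians of 0.38 and 0.05. Under quantile normalization 4 were higher and 4 lower, and the lactating median became -0.06. Ltf, the iron-binding milk protein lactoferrin, had ratios of 0.65 and 0.64. The casein gene Csn1s2b had 58.6 and 117.5 in virgin and 14701.4 and 20587.4 in lactating glands, control first. Aqp5, a water channel, had 540.5 and 712.5 in virgin and 33.5 and 1044.0 in lactating glands, where its control stood at the Y-linked level. Xdh, the xanthine dehydrogenase of the milk fat globule, was the lower array in both mutants, at -0.35 and -0.73. Among hormone-sensing luminal genes 6 of 15 were higher and 4 lower in both pairs. Gata3, a transcription factor of luminal fate, stood at 0.66 and 0.67, whereas Esr1, the oestrogen receptor, stood at -0.64 and -0.69. Tnfsf11, the Rankl signal that acts downstream of progesterone, had signals of 1399.4 and 838.3 in virgin and only 43.8 and 7.9 in lactating glands, too dim there for its ratio to be read.

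Immune lists did not run one way. B and plasma cell genes had a median of 0.42 in the virgin and -0.27 in the lactating pair. Cd79b, a signalling chain of the B cell receptor, stood at 0.71 and 1.03 with a lactating control under the Y-linked median, while Igha, the IgA heavy chain made by plasma cells, had 9563.8 and 6850.2 in virgin and 1319.3 and 257.5 in lactating glands. Macrophage and dendritic cell genes were lower in both pairs in 10 of 26 and higher in 3. None of the 10 erythroid genes listed was tested.

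DNA replication genes stood higher in the virgin mutant, and less clearly in the lactating one. Of 45 S phase genes 27 were higher and 1 lower in both pairs, with medians of 0.52 and 0.19. In the virgin mutant 43 of the 45 were higher, against 52.8% of all tested genes. In the lactating mutant 28 were higher, against 53.9% of all tested genes. Pold2, a subunit of DNA polymerase delta, had signals of 438.8 and 874.9 in virgin and 305.8 and 648.7 in lactating glands, control first. Both mutants lay above both controls. Rrm1 and Rrm2 encode the subunits of ribonucleotide reductase, which makes the building blocks of DNA. Rrm1 had 414.9 and 1370.1 in virgin and 333.0 and 606.6 in lactating glands. Rrm2 had 529.0 and 1134.1 in virgin and 164.7 and 322.3 in lactating glands. Rrm1 separated the genotypes across stages, whereas the Rrm2 signal of the virgin control lay above that of the lactating mutant.

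Tcf19, a gene switched on at the start of S phase, had ratios of 0.84 and 0.86. Between it and D17H6S56E-5 lie 16 tested genes. Uhrf1, which brings the maintenance methylase to newly made DNA, had 542.7 and 1136.2 in virgin and 59.6 and 117.9 in lactating glands. Pola1, the catalytic subunit of the primase-coupled polymerase, had 387.8 and 562.3 in virgin and 62.0 and 222.1 in lactating glands. Both genes were dim in the lactating control. Pcna, the sliding clamp, stood at 0.47 and -0.02, and Mcm6, a subunit of the replicative helicase, stood at 0.93 in the virgin pair and was near the Y-linked level in the lactating one.

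Many S phase genes are known targets of E2F factors, so their promoters were searched for the E2F words TTTCCCGC, TTTGGCGC, TTTGCCGC and TTTCGCGC on both strands, from 250 bases before to 50 after the start. Of 45 S phase tested genes 37 had promoters in the RefSeq table, and 15 of these genes held a match, as did 33.3% of their promoters. Among all 32851 promoters 2.27% held one, and among those of the mitosis list 5.56%. Shown are the 200 bases before the start of 3 matching S phase genes described here, Uhrf1 (chr17:56304113-56304312, plus strand), Pola1 (chrX:93632156-93632355, minus strand) and Mcm6 (chr1:128359706-128359905, minus strand), from RefSeq on GRCm38.p6, with matches in capitals. Each is written 5' to 3' in the direction of transcription. In Mcm6 a match to TTTGGCGC overlaps one to TTTCGCGC on the other strand.
Uhrf1: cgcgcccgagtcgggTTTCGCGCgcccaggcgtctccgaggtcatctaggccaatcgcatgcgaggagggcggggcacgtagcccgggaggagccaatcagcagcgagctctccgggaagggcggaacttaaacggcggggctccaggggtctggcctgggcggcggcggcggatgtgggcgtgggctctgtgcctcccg
Pola1: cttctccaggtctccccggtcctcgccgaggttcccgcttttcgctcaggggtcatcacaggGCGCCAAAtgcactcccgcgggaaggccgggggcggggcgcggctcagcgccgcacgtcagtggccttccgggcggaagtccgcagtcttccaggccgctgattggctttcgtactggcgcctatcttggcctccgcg
Mcm6: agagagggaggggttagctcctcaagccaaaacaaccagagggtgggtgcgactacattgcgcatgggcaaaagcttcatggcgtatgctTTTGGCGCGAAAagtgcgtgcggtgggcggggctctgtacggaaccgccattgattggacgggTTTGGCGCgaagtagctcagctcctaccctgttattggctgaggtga
A match is a description of letters and not a bound site. Pold2, Tcf19, Rrm1 and Rrm2 held no match in this window.

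**Figure D5:**
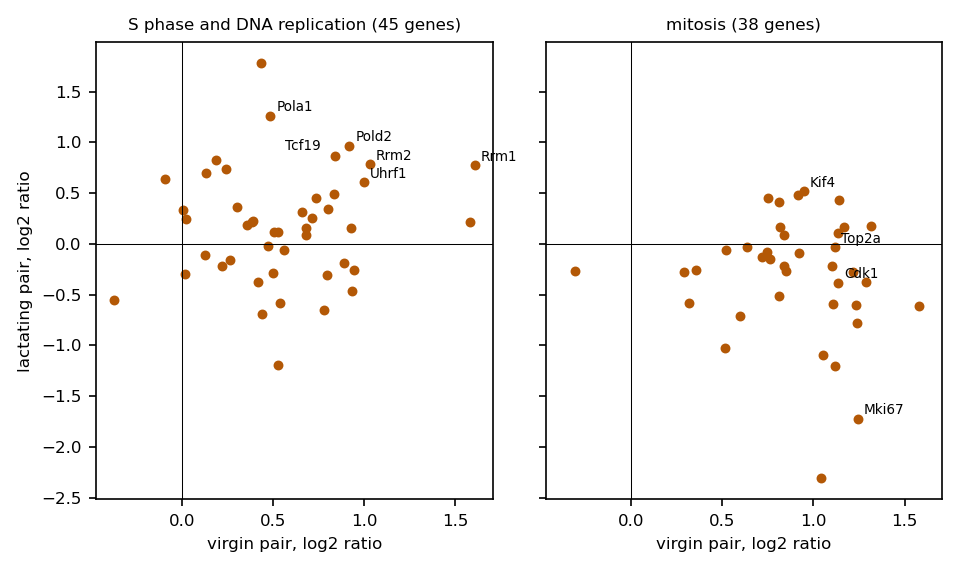
Log2 ratio of mutant to control in the virgin pair (x axis) and in the lactating pair (y axis) for the 45 tested S phase genes (left) and the 38 tested mitosis genes (right), 1 point a gene. S phase genes gather in the upper right part, whereas mitosis genes lie at the right, with 28 of 38 below 0 in the lactating pair.

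Mitosis genes did not share the direction of the S phase genes in lactation. Of 38 tested, 37 were higher in the virgin mutant and 28 lower in the lactating mutant, with medians of 0.92 and -0.23, and 10 were higher in both pairs. Mki67, the proliferation marker Ki67, had signals of 1080.5 and 2627.9 in virgin and 2109.7 and 603.8 in lactating glands, control first. Cdk1, the kinase that drives entry into mitosis, stood at 1.14 and -0.38, and Top2a, the topoisomerase that untangles chromosomes, at 1.12 and -0.03. Kif4, a chromosome-bound kinesin, stood at 0.95 and 0.52, and Ncapd2, a condensin subunit, at 0.92 and 0.48. With 1 pair at each stage, the difference between stages was not tested.

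The DNA repair partners of Brca1 stood close to all other genes. Of 33 homologous recombination genes 12 were higher and 5 lower in both pairs, with medians of 0.07 and 0.09, of which the virgin one turned to -0.08 under median centring and -0.03 under quantile normalization. Chek1, the checkpoint kinase that slows the cell cycle when replication stalls, had signals of 265.3 and 493.6 in virgin and 139.6 and 283.8 in lactating glands, control first. H2ax, the histone variant that marks broken DNA, had 815.4 and 1137.8 in virgin and 574.6 and 970.6 in lactating glands. Chek1 mutants lay above both controls, and the H2ax groups did so too. Brca2, a partner of Brca1 in this repair, stood at 0.39 and -0.75.

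Of 24 p53 target genes 10 were higher and 4 lower in both pairs, with medians of 0.14 and 0.06, the first of which became -0.02 under median centring. Cdkn1a, the cyclin-dependent kinase inhibitor p21, had signals of 399.9 and 641.2 in virgin and 73.3 and 319.6 in lactating glands, control first. Sesn2, a stress-induced brake on mTOR signalling, had 140.4 and 360.4 in virgin and 214.0 and 368.7 in lactating glands. Ddit4, which acts on the same pathway, stood at 0.58 and 1.91. On the probe set given, both Sesn2 mutants lay above both controls, while Cdkn1a overlapped between stages. The other Sesn2 probe set had ratios of 0.25 and -0.66, so it was lower in the lactating mutant. Mdm2, the ligase that limits p53, stood at 0.11 and -0.04.

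Chaperone genes had the highest median fitted ratio of the lists, 0.48. Of 22 heat shock genes 14 were higher and 1 lower in both pairs, with medians of 0.22 and 0.70, of which the virgin one became 0.06 under median centring. Hsph1, a large co-chaperone of Hsp70, had signals of 1417.0 and 2476.1 in virgin and 491.1 and 1196.2 in lactating glands, control first. Stip1 and Fkbp4, co-chaperones of Hsp90, had virgin ratios of 0.94 and 0.55 and lactating ratios of 0.69 and 0.85. The constitutive Hspa8 and Hsp90aa1 had 0.49 and 0.53 in the virgin and 0.58 and 0.46 in the lactating pair. The inducible Hspa1b, separated from D17H6S56E-5 on chromosome 17 by 2 tested genes, had 0.51 and 1.85. Stage changed the level of most. List members were named mainly from those with the same sign in both pairs, so the shared sign of the 6 genes is no result.

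Of 32 genes of endoplasmic reticulum folding and stress 18 were higher and 3 lower in both pairs, with medians of 0.07 and 0.27, the first of which became -0.08 under median centring. Sdf2l1, a partner of the chaperone BiP, stood at 0.69 and 0.68, and Manf, a stress-induced secreted factor, at 0.50 and 0.32. Trib3, a pseudokinase induced by Atf4, had the opposite direction, at -0.46 and -1.33. Of 30 genes of tRNA charging and the amino acid response 14 were higher and 3 lower in both pairs, with medians of 0.14 and 0.32, the first of which became -0.02 under median centring. Besides Vars, Farsa, a subunit of the phenylalanyl-tRNA synthetase, had signals of 114.3 and 317.7 in virgin and 362.3 and 720.9 in lactating glands. Atf5, a transcription factor of the stress response, stood at 0.69 and 1.10, and the amino acid carrier gene Slc7a5 at 1.99 and 0.51. Ribosomal protein genes were higher in both pairs in 15 of 22 and lower in 0, with small medians of 0.15 and 0.11. Under quantile normalization they were higher in 7 and lower in 3, with medians of 0.04 and 0.03, and under median centring higher in 10, with a virgin median of -0.0037. Rps7, one of them, stood at 0.26 and 0.25.

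Immediate early genes, which cells switch on within minutes of a stimulus, stood lower mainly in the lactating mutant. Of 26 tested, 23 were lower there and 14 in the virgin mutant, with medians of -0.68 and -0.10, and 13 were lower and 2 higher in both pairs. Klf6 had signals of 2685.4 and 1853.5 in virgin and 3008.3 and 1067.5 in lactating glands, control first. The related factor Klf4 stood at -0.56 and -0.50, and Fosl2, a Fos family member, at -0.50 and -0.70. These genes were named from the members with the same sign in both pairs, and the list as a whole differed more in the lactating pair.

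Clock and clock output genes had medians of 0.05 in the virgin and -0.71 in the lactating pair, the first of which became -0.11 under median centring, and 8 of 20 were lower and 4 higher in both pairs. Dbp, an output factor of the clock, had signals of 2317.6 and 1617.7 in virgin and 668.2 and 224.9 in lactating glands, control first. Nr1d2, a repressor of the clock loop, stood at -0.41 and -1.38, and Bhlhe40 at -0.53 and -0.62. Per2, a core period gene, stood at 0.16 and -1.91.

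Metabolic lists differed between stages. Sterol synthesis genes had a median of -0.22 in the virgin and 0.95 in the lactating pair, with 19 of 20 higher in the lactating mutant. Sqle, which makes the sterol precursor squalene epoxide, stood at -0.345 and 1.504. Fdps, an enzyme of isoprenoid synthesis, stood at 0.48 and 1.81, and Insig1, the sterol sensor that restrains the pathway, at 0.30 and 1.40. Respiratory chain genes were lower in 34 of 35 in the virgin mutant and higher in 26 of 35 in the lactating mutant, and Uqcrc2, a complex III subunit, stood at -0.47 and -0.35. Among 23 oxidative stress genes 12 were lower and 6 higher in both pairs, and Sod2, the mitochondrial superoxide dismutase, had signals of 5774.5 and 3798.4 in virgin and 5985.3 and 3772.0 in lactating glands, control first. On that probe set both Sod2 mutants lay below both controls, and stage made little difference. All 3 other probe sets were lower in both mutants too. A bright one of them had 6220.8 and 3894.2 in virgin and 3260.1 and 2315.7 in lactating glands. There the virgin mutant lay above the lactating control.

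Genes of the X chromosome and of X inactivation, to which the series' title points, held few large ratios. Rnf113a1, given above, was the X-linked gene among the 15. Mtm1, an X-linked gene for the lipid phosphatase myotubularin and among the 8 highest moderated statistics, had signals of 6139.2 and 11303.4 in virgin and 2018.4 and 5192.9 in lactating glands, control first. Its ratios were 0.88 and 1.34, and in the conditional pair it stood at -0.92. Of its 2 other probe sets, 1 had ratios of 1.92 and 0.21 and a conditional ratio of -1.24. The remaining probe set had -0.60 and 0.55, and 0.54 in the conditional pair. Of 27 genes that act in X inactivation 15 were higher and 3 lower in both pairs, with medians of 0.16 and 0.12, the first of which became 0.01 under median centring. Rbm15, which guides RNA methylation of Xist, stood at 0.91 and 0.70, and Hnrnpu, which anchors Xist to chromatin, at 0.43 and 0.70.

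Signalling lists lay near the background. Of 32 Wnt and Notch genes 11 were higher and 6 lower in both pairs, with medians of 0.14 in each, the virgin one becoming -0.02 under median centring, and besides Notch4 the Wnt receptor Fzd2 stood at 0.64 and 0.59. Of 29 growth factor and cyclin genes 8 were higher and 6 lower. Cited4, a transcriptional coactivator and another of the 8 highest moderated statistics, had signals of 199.4 and 418.3 in virgin and 873.9 and 3496.1 in lactating glands, control first, and its virgin mutant lay below the lactating control.

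The conditional pair, whose control and mutant share no array with the other pairs and bear the array date of the virgin pair, was set beside these values. Of the 15 genes at least 2-fold higher in both D11 pairs 4 were higher in the conditional mutant too, and of the 4 lower genes 3 were lower, but none reached 2-fold. Among all genes higher in both D11 pairs 52.0% were higher in the conditional mutant, and among those lower in both 47.8% were lower. Vars stood at 0.49 and Hoxa3 at 0.80 in the conditional pair, while Rab7b stood at -1.12 and St6galnac1 at -1.14. S phase genes stood higher there as well, in 43 of 45 with a median of 0.62, and so did heat shock genes, in 19 of 22 with a median of 0.34. Of all tested genes 52.3% were higher in the conditional mutant. Luminal epithelium genes, with a median of -0.39, and muscle genes, with a median of 0.30, had the opposite sign to both D11 pairs. The conditional pair differs in genotype, stage and age at once, which cannot be told apart.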

How the data were processed

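Total RNA of mammary glands was hybridised to a mouse expression array, 1 mouse an array. Each probe set has 1 deposited intensity, a linear MAS5 signal; MAS5 is the tool in the submitters' processing notes, without a version. Each array's 2%-trimmed mean was 500.0. The members and gene lists were chosen with earlier results of these data known.

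The pseudocount of 52.1 is the 25th percentile over the deposited table, and the analysis ran on log2(signal + 52.1). Each gene took its probe set with the highest mean, cross-hybridising sets (those ending in _x_at) only where it had no other, and genes with a mean of at least 7.715, the median over probe sets, were kept: 11495 of 18193. Trp53 is not analysed here. The main test was limma 3.58.1 in R 4.3.3 with stage as a block, a variance trend and Benjamini-Hochberg adjustment. The labels carry no replicate numbers, and pairs were formed by the labelled stage, with no shared animal. Where nothing was called, genes were named by the smaller of both pairs' ratios (12 highest and 12 lowest), by the moderated statistic (8 each way), by the largest opposite ratios (6 each way) and as list members. Up to 4 members of a list were taken by the smaller ratio from those with the same sign in both pairs. Their agreement between the pairs was set by that choice. Other list members were named with their values. Alternatives were other scalings, pseudocounts, filters, probe set rules, no trend, no block and arrays left out. The fit was tested on simulated data. The number of arrays limits the precision, and no detection calls were used: brightness was judged against 20 Y-linked probe sets, with a median signal of 33.6 and a 95th percentile of 260.4. Promoters came from a RefSeq table of GRCm38.p6, which also gave the gene order.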

Additional observations from a re-analysis of the deposited data

Results flagged for a closer look

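Some results had opposite signs in the virgin and the lactating pair. With 1 pair a stage, none of these differences was tested. At least about 2-fold higher in the virgin and lower in the lactating mutant were Rnf122 (log2 ratios 1.94 and -2.42), Sgsm1 (1.81 and -1.56), Aqp12 (1.40 and -2.51), Naaladl2 (1.29 and -1.80), Cdca5 (1.26 and -1.39) and Mki67 (1.24 and -1.72). In the other direction were Ucp1 (-2.05 and 3.23), Fank1 (-1.36 and 1.99), Cryab (-1.26 and 1.52), Rtel1 (-1.64 and 1.25), Tigd3 (-1.63 and 1.01) and Hoxc9 (-1.76 and 0.95). Each value rests on 1 probe set. None of the 3 other probe sets of Rtel1 shared both signs, nor did the 1 other of Rnf122 and of Cdca5. For Sgsm1 and Cryab 1 of 2 others did, and for Fank1 1 of 3. Another Rtel1 probe set had 0.92 and -0.26, and the other of Cdca5 had 0.54 and 0.25. Ucp1, the uncoupling protein of brown fat, had signals of 1604.5 and 348.7 in virgin glands, control first, and 134.1 and 1690.0 in lactating glands. Most of the other genes were dim in at least 1 array. Cdca5, which holds sister chromatids together, and Mki67 belong to dividing cells, and the mitosis list had medians of 0.92 and -0.23. The medians of B and plasma cell genes were 0.42 and -0.27, those of acute phase genes -0.20 and 0.62, those of sterol synthesis genes -0.22 and 0.95, and those of glycolysis genes -0.23 and 0.36.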

How the results depend on the processing

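The counts of genes past 2-fold in both pairs, higher then lower, were 8 and 7 with quantile normalization, with the pseudocount at the 10th percentile 23 and 12, at the 50th percentile 4 and 1, with no filter on dim genes 42 and 15, with the filter at the 75th percentile 6 and 2, and with the mean of all probe sets 9 and 1. That 1 is none of the 4 lower genes described. Asking for a signal of at least 260.4 in all 4 arrays, a choice made after seeing the data, left 3 and 2, and asking for 2-fold in the conditional pair as well left 0 and 0. The limma test called 0 genes in every setting except median centring, which called 11, all higher, with a lowest adjusted p of 9.68e-05, and the fits that leave out 1 array, which called 0 to 1 (BC018473, without the virgin control). The 11 were D17H6S56E-5, BC018473, Notch4, St6galnac1, Vars, AI506816, Dusp7, Aqp5, Hspg2, Banp and Sytl1, of which 8 are among the 19 genes at least 2-fold apart in both pairs; the cause was not tested. Without the stage as a replicate block 0 genes were called and 6 had an unadjusted p under 0.05. The pairing comes from the stage in the labels.

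The fitted ratio of Xist turned to 0.011 with quantile normalization and to 0.014 with the conditional pair added, which also turned Retn (0.013), Ltf (-0.36) and Csn1s2b (-0.090); the mean of probe sets turned H2-Aa (0.039) and Slc2a4 (0.009). Leaving out 1 array, without the block, lets stage enter the ratio. The ranges then crossed 0 for Actg2 (-0.23 to 1.54), Atp4b (-2.56 to 0.58), Brca1 (-0.17 to 1.20), Cd79b (-0.74 to 2.49), Cited4 (-0.037 to 2.88), Cldn7 (-0.35 to 1.95), Csn1s2b (-2.98 to 4.08), Dbp (-2.24 to 0.35), Drd4 (-2.92 to 0.15), Dusp7 (-0.062 to 3.07), Esr1 (-1.45 to 0.12), Fads2 (-0.48 to 2.08), Gys2 (-2.50 to 0.42), H2-Aa (-2.21 to 0.58), H2-Ab1 (-1.50 to 0.78), H2-Eb1 (-0.68 to 2.48), Igha (-3.55 to 0.93), Iglon5 (-2.75 to 0.24), Insig1 (-0.35 to 2.05), Klf4 (-1.30 to 0.23), Ltf (-1.35 to 2.63), Mb (-1.65 to 0.13), Mcm6 (-1.73 to 2.81), Mylk4 (-2.46 to 0.030), Ncapd2 (-0.24 to 1.64), Nr1d2 (-2.005 to 0.21), Plin4 (-1.71 to 0.68), Pola1 (-0.10 to 1.85), Pparg (-3.02 to 1.40), Rbm15 (-0.46 to 2.07), Retn (-2.44 to 0.69), Slc2a4 (-0.98 to 0.049), Slc7a5 (-1.04 to 3.54), Spint1 (-0.35 to 2.10), Tcap (-2.46 to 0.050), Tnfsf11 (-2.65 to 1.27), Trdn (-2.04 to 0.007), Trib3 (-2.24 to 0.45), Ttn (-2.63 to 0.94), Uhrf1 (-0.60 to 2.21), Wap (-2.75 to 3.94), Xdh (-1.86 to 0.79), Xist (-0.30 to 0.27). With 1 array of each genotype a stage, the spread between mice of 1 group was not measured.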
